A study of Mus musculus with 4 samples.

Results

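Fatty acid binding and uptake proteins were followed in liver RNA of 4 NSG mice, 2 left untreated and 2 given JIB-04 at 55 mg/kg by oral gavage. Dosing was repeated 5 times, 2 per week, before the livers were taken. NSG mice are immunodeficient and lack mature lymphocytes and natural killer cells, a background that all 4 animals share, and the labels give their genotype as WT. JIB-04 is a drug-like compound that inhibits the Jumonji family of histone demethylases. Controls are labelled untreated and no vehicle arm is among the 4 libraries, so the drug and its administration cannot be told apart. The 8 genes (Fabp1, Fabp2, Fabp4, Fabp5, Fabp7, Cd36, Slc27a2 and Slc27a4) were chosen by name from 56748 genes in the deposited table. They were selected on gene family with the FPKM levels and the differences between these groups already known, so their group differences are given here as a description and no p-value is printed for them.

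Long-chain fatty acids reach the hepatocyte bound to albumin or released from lipoproteins. CD36, a scavenger receptor, and the fatty acid transport proteins of the Slc27a family help them across the membrane, and the transport proteins also join them to coenzyme A. Inside the cell, fatty acid binding proteins are small soluble carriers that take the acids to membranes, mitochondria, peroxisomes and the nucleus. There, PPAR alpha, a nuclear receptor activated by fatty acids, switches on genes of fatty acid oxidation and several carriers and uptake proteins.

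FPKM is a read count scaled by gene length and library size, and 36469514 to 43283827 reads per library lay behind the values. The deposited scaling did not follow these read totals exactly. For a gene of 1 kb, 1 read was 0.0273 FPKM in untreated 1 (36793474 reads) and 0.0265 in untreated 2 (36878654 reads). The test took in the 10819 genes whose FPKM averaged 1 or more across all libraries. Pearson's r of log2(FPKM + 1) across those genes, which are not independent replicates, was 0.985 and 0.984 within the groups and 0.967 to 0.972 between them. All 9 hepatocyte markers found of 10 listed were present, from Apob at a mean of 390 FPKM to Alb at 37029. The 10 hepatocyte, adipocyte, immune, endothelial and other marker lists held 0 genes called by limma at an adjusted p under 0.05. Of all 10819 genes tested, 980 were higher and 700 lower at an unadjusted p under 0.05 in limma. Voom on recovered reads called 331 higher and 214 lower. In the marker lists, voom called 3 genes lower of 40 tested. Of these 40, 9 had a positive log2 change, and the median was -0.14. Groups did not overlap downward for 13 and upward for 1, beside 21.8% and 24.6% of all genes tested. Limma gave 6 of these 40 an unadjusted p under 0.05 (5 lower and 1 higher). The lower ones, named after their values were seen, were Lrat, Serpina1c, Lyz2, Ahsg and Alb (limma adjusted p from 0.0549 to 0.144). The higher one was S100a8, a neutrophil marker named after its values were seen, at 6.68 and 2.40 FPKM in the untreated livers and 36.3 and 63.0 after JIB-04 (limma adjusted p = 0.131), so its groups did not overlap. The 6 neutrophil markers summed to 25.96 and 6.98 FPKM without treatment and to 44.3 and 71.5 with it, Ly6g, Mpo, Elane and Camp were at most 0.511 FPKM in any library, and S100a9 had overlapping groups. The part of these cells in the group differences of the 8 genes was not tested.

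Fabp2 was the sole fatty acid binding or uptake gene of the 8 whose difference passed the whole-table threshold, and its RNA fell to 45.0% of the untreated level. The other 7 genes differed by less, with means between 77.7% (Slc27a2) and 125% (Fabp7) of the untreated mean. All 8 passed the filter on low values, Fabp4 narrowly with a mean of 1.01 FPKM. Among them 0 were called higher and 1 was called lower, where 1.53% and 0.619% of all genes tested were called in those directions. Groups did not overlap for Fabp5, upward, and Fabp2, downward, while 24.6% of all tested genes had no overlap upward and 21.8% none downward. The median log2 change of the 8 genes was -0.07, against 0.01 over all genes tested. Nothing is read from these counts, since the same contrast was known when the genes were picked.

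**Figure D1:**
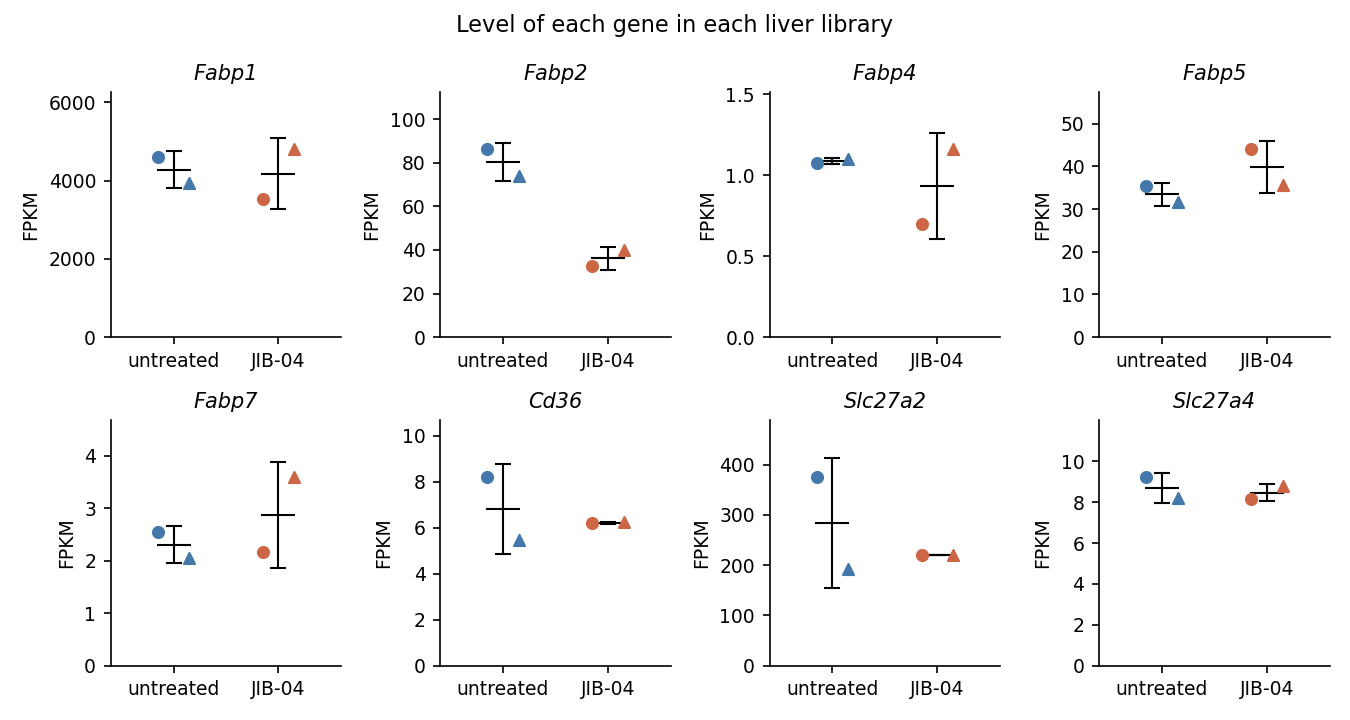
FPKM (vertical axes, each from 0) of the 8 genes in untreated (blue) and JIB-04 (orange) liver; circles are replicate 1, triangles replicate 2, and black bars the mean and SD of 2 libraries. Fabp2 lies between 74.1 and 86.5 in untreated and between 32.4 and 39.9 in JIB-04 liver, Slc27a2 is high in untreated 1 alone, and the remaining groups overlap or, for Fabp5, nearly touch.

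Fabp2 (ENSMUSG00000023057, chromosome 3, 122688721 to 122693155, GRCm39, plus strand) encodes the intestinal fatty acid binding protein, best known from enterocytes. It stood at 86.5 FPKM in untreated 1 and 74.1 in untreated 2, against 32.4 in JIB-04 1 and 39.9 in JIB-04 2. Both treated livers were below both untreated ones. These values rested on 3062, 2700, 1342 and 1413 reads in that order. Group means were 80.3 ± 8.81 and 36.2 ± 5.26 FPKM (SD, n = 2), 2.22-fold lower with JIB-04, and the log2 change of log2(FPKM + 1) was -1.13 (SE 0.151). Leaving out untreated 2 kept the call, while leaving out untreated 1 or either JIB-04 library ended it, with log2 changes from -1.28 to -0.99 in these fits. The call also ended when genes of low value were kept in the fit, where 0 genes of the whole table were called lower, against 67 in the main fit. In each fit without 1 library, fewer genes of the whole table were likewise called lower than in the main fit.

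Intestinal epithelium markers were near the floor in all libraries. The 7 listed genes summed to 0.128 to 0.417 FPKM per library, 4 of them (Cdx1, Cdx2, Alpi and Sis) were at 0 in every library, and Vil1 was the highest at a mean of 0.301 FPKM. Fabp2 overlaps 4933405D12Rik, a long noncoding RNA gene on the opposite strand, which held 4 to 12 reads per library. The strand setting of the counting is not given in the sources used here. No 50-base stretch of the principal Fabp2 transcript occurs in transcripts of another gene in GENCODE M21.

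Ratios to its relatives restate the lower Fabp2 level and are no separate observation. By deposited FPKM its level was 2.44 and 2.34 times that of Fabp5 in untreated 1 and 2, but 0.734 and 1.12 times in JIB-04 1 and 2. Fabp1 exceeded it 53.3-fold and 53.2-fold in untreated liver and 109-fold and 121-fold in JIB-04 liver. In both ratios the groups did not overlap. Apart from Fabp1, the fatty acid binding genes summed to 126 and 109 FPKM without treatment, and to 79.5 and 80.2 in JIB-04 liver, and Fabp2 made up 68.9% and 68.0% of that sum against 40.8% and 49.7%. These values depend on the length used for Fabp5. Scaled to the principal transcripts of GENCODE M21, the Fabp2 level was 0.676 and 0.648 times that of Fabp5 in untreated liver and 0.203 and 0.310 times in JIB-04 liver. On that scale its share of the sum was 38.6% and 37.6% against 16.3% and 22.2%, so Fabp2 was below Fabp5 in every library while the groups still did not overlap.

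Sequence next to the start is given here for Fabp2, the gene of the 8 that was called, and Fabp1, the most abundant. Both are liver-expressed genes of 1 family with different group differences. The stretches come from RefSeq (GRCm38.p6). They end before the RefSeq start and before every start of a protein-coding transcript of the gene in GENCODE M21. Noncoding transcripts and other genes were not considered. Fabp2 is chr3:122894822-122895071 and Fabp1 is chr6:71199629-71199826, both on the plus strand, printed 5′ to 3′. Capitals mark matches on either strand to AGGTCA (the half-site of nuclear receptors such as PPAR alpha), CAAAGT (a core of sites for HNF4), GTTAAT (a half-site of HNF1) and TATAAA (the TATA box).

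Fabp2: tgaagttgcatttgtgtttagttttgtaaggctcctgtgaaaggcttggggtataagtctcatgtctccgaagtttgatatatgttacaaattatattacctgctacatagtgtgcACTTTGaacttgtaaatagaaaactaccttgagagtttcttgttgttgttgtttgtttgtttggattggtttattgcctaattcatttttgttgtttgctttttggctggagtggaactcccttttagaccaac

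Fabp1: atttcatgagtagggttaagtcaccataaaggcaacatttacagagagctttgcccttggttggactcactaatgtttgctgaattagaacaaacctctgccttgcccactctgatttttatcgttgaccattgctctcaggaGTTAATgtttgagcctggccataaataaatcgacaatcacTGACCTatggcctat

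Fabp2 carries a single CAAAGT match, with its first base at -134 counted from the end of the stretch, and 12.55% of 32851 promoter windows of that length hold the motif. Fabp1 carries a single AGGTCA match (11.3% of windows of its length) and a single GTTAAT match (5.26%). Neither stretch holds TATAAA. The Fabp1 stretch is 198 of the 250 bases before its RefSeq start, and the bases nearest that start were not searched. Neither stretch has an exact match to AGGTCANAGGTCA, a consensus of the paired element bound by PPAR alpha with its partner RXR. Exact matches occur in 0.0335% of windows of the Fabp2 length. In Fabp1 the AGGTCA match runs on as TGACCTatggcct, which on the other strand differs from that consensus by a single base. This variant was seen beside the AGGTCA match, and variant elements were not searched for by rule. No such reading is given for the Fabp2 stretch, so no contrast between these genes is drawn from it. The matches describe letters and were not measured as bound sites. Of the 8 genes 6 had a promoter window in the RefSeq table.

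Fabp1 (ENSMUSG00000054422, chromosome 6, 71176811 to 71182007) encodes the liver fatty acid binding protein, an abundant cytosolic carrier of hepatocytes that also binds bile acids and heme. It measured 4609 and 3940 FPKM in untreated 1 and 2, while JIB-04 1 and 2 gave 3533 and 4816. The JIB-04 libraries thus gave both the lowest and the highest value, and the groups overlapped. Means were 4275 ± 473 and 4174 ± 907 FPKM (SD, n = 2), with a log2 change of -0.05 (SE 0.204). The difference was smaller than the spread within either group, and its sign was positive without untreated 1 or without JIB-04 1. Fabp1 ranked between 8 and 15 among all genes by FPKM in the 4 libraries, took 0.194% to 0.268% of reads, and supplied 97.3% to 98.4% of the summed FPKM of the 5 fatty acid binding genes.

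Fabp5 (ENSMUSG00000027533, chromosome 3, 10077608 to 10081667) encodes the epidermal form, which macrophages and many epithelia also make. Its levels were 35.4 and 31.6 FPKM in untreated 1 and 2, while JIB-04 1 and 2 gave 44.2 and 35.6. The lower JIB-04 library (35.56) and the higher untreated library (35.43) nearly met, so the groups were barely apart. Means were 33.5 ± 2.70 and 39.9 ± 6.09 (SD, n = 2; log2 change 0.24, SE 0.148), and the whole-table fit did not call it. Leaving out JIB-04 1 gave a log2 change of 0.08, and leaving out JIB-04 2 gave 0.39. Copies in other genes covered 21.1% of the 50-base stretches of its principal transcript. The 5 genes that hold these copies collected 17 to 51 reads per library, beside 4261 to 6756 for Fabp5. Keratin markers of epidermis were low, with Krt1, Krt5 and Krt14 at 0 in all libraries.

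Fabp7 (ENSMUSG00000019874, chromosome 10, 57660977 to 57664546), the brain form known from glia, was at 2.55 and 2.05 FPKM in untreated 1 and 2 and at 2.16 and 3.59 in JIB-04 1 and 2. The high value was that of JIB-04 2 alone, and the other treated liver lay between the untreated ones. Its means of 2.30 ± 0.352 and 2.88 ± 1.01 (SD, n = 2) rested on 97 to 165 reads, with a log2 change of 0.21 (SE 0.202) that turned negative without JIB-04 2. The 5 glial markers summed to 0.469 to 0.895 FPKM, with Sox10 at 0 throughout. Fabp4 (ENSMUSG00000062515, chromosome 3, 10269148 to 10273636), the adipocyte form also found in macrophages and capillary endothelium, was at 1.08 and 1.10 FPKM in untreated liver. In JIB-04 liver it was at 0.702 and 1.16, on both sides of the untreated pair. Its log2 change was -0.12 (SE 0.166), from 135 to 192 reads, and turned positive without JIB-04 1. Adipocyte markers were nearly absent, at a summed 0.317 FPKM in untreated 1 and 0.0287 in untreated 2 against 0 and 0.00586 in JIB-04 1 and 2, and Lep, Retn and Adig were at 0 in every library. Fewer cells of a type and less RNA per cell cannot be told apart in bulk tissue.

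Cd36 (ENSMUSG00000002944, chromosome 5, 17986688 to 18093799) encodes the scavenger receptor that binds long-chain fatty acids and oxidized lipoproteins, and is made by macrophages, endothelium and adipocytes as well as hepatocytes. Untreated 1 had 8.20 FPKM and untreated 2 had 5.44, while JIB-04 1 and 2 had 6.19 and 6.25. The treated pair was close together and lay between the untreated animals. Means were 6.82 ± 1.95 and 6.22 ± 0.0460 (SD, n = 2; log2 change -0.09, SE 0.181), and the difference was positive without untreated 1. Macrophage markers, 13 of 13 tested, summed to 629 and 543 FPKM in the untreated livers, against 464 and 563 after JIB-04, with Cd5l and Clec4f the most abundant. Endothelial markers summed to 125 and 104 against 104 and 114, with Clec4g and Eng the most abundant. Their part in the Cd36 values was not tested.

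Slc27a2 (ENSMUSG00000027359, chromosome 2, 126394327 to 126430163) encodes FATP2, a transport protein of the plasma membrane and peroxisomes with acyl-CoA synthetase activity. It differed most between animals of a single group, at 375 FPKM in untreated 1 and 192 in untreated 2, a 1.96-fold gap. JIB-04 1 and 2 were almost equal, at 219.99 and 220.4. The treated livers were lower than untreated 1 and higher than untreated 2. Means were thus 283 ± 130 and 220.2 ± 0.292 FPKM (SD, n = 2), and the log2 change of -0.28 (SE 0.334) became -0.77 without untreated 2 and 0.20 without untreated 1. Copies in Gm26697 covered 13.0% of the 50-base stretches of its principal transcript.

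Slc27a4 (ENSMUSG00000059316, chromosome 2, 29692646 to 29707534), which encodes FATP4, a transport protein prominent in intestine and skin, varied least. It was at 9.23 and 8.18 FPKM in untreated 1 and 2 and at 8.17 and 8.77 in JIB-04 1 and 2. Groups overlapped, with means of 8.71 ± 0.738 and 8.47 ± 0.426 (SD, n = 2) and a log2 change of -0.03 (SE 0.123). Slc27a2 supplied 93.4% to 95.6% of the summed FPKM of Cd36, Slc27a2 and Slc27a4 in each library.

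**Figure D2:**
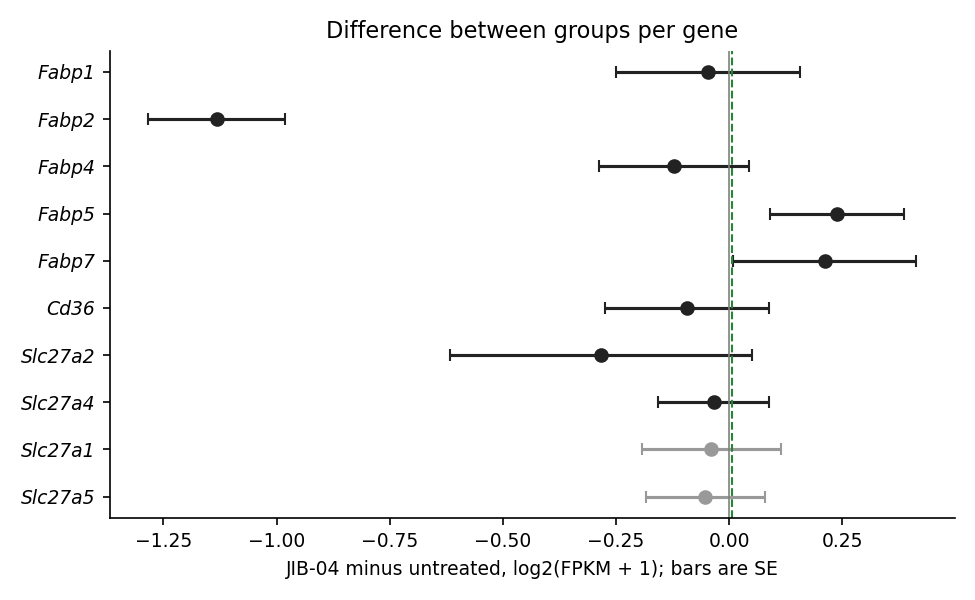
Log2 change of log2(FPKM + 1), JIB-04 minus untreated (horizontal axis), with bars of 1 SE, for the 8 genes (black) and for 2 further transport protein genes that were tested (grey); the dashed green line is the median of all genes tested. Fabp2 sits at -1.13, and the others lie between -0.28 (Slc27a2) and 0.24 (Fabp5).

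The remaining genes of the binding and transport protein families were mostly silent in these livers. Of 9 such genes 2 passed the filter, and limma called 0 of them, 0 also at an unadjusted p under 0.05 and 0 by voom. Slc27a5, which encodes FATP5, the bile acid and fatty acid CoA ligase of liver, was at 354, 329, 340 and 318 FPKM in untreated 1 and 2 and JIB-04 1 and 2 (limma adjusted p = 0.908). Its level was thus even across the 4 animals. The ratio of Slc27a2 to Slc27a5 was 1.06 in untreated 1 and 0.582 in untreated 2, around the 0.647 and 0.693 of the JIB-04 libraries. Slc27a1, the muscle and fat transport protein gene, averaged 1.51 ± 0.364 and 1.43 ± 0.0813 (SD, n = 2; limma adjusted p = 0.947). Fabp6, Fabp9 and Pmp2 had no reads in any library. Fabp3, the heart and muscle form, held 67 reads in untreated 1, against 1 in untreated 2, 3 in JIB-04 1 and 0 in JIB-04 2, so it was seen almost solely in a single animal.

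Levels compared between these genes depend on the length used. FPKM divides by the deposited gene length, which for Fabp4 (4489 bases) and Fabp5 (3567 bases) was 5.01 and 3.61 times that of the principal transcript in GENCODE M21 (896 and 987 bases). The ratio was 1.55 for Fabp7, 1.29 for Slc27a2 and at most 1.09 for the other 4 genes. By deposited FPKM the order over 4 libraries was Fabp1 (4225), Slc27a2 (252), Fabp2 (58.2), Fabp5 (36.7), Slc27a4 (8.59), Cd36 (6.52), Fabp7 (2.59) and Fabp4 (1.01). If every read came from the principal transcript, the values were 4225, 324, 58.2, 133, 9.35, 6.88, 4.03 and 5.07 in the same order. Fabp5 then stood above Fabp2 and Fabp4 above Fabp7. Group ratios of FPKM within a gene are not altered by its length. Over the 4 libraries the deposited FPKM of Fabp2 and Fabp5 overlapped, as did that of Slc27a4 and Cd36, although Slc27a4 was above Cd36 in each library. Fabp1, Slc27a2 and the pair of Fabp2 and Fabp5 were separated by more than their spread.

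The animals of a single group also differed from each other in a patterned way. Of the 8 genes 7 were higher in untreated 1 than in untreated 2, with Fabp4 the exception, and 7 were higher in JIB-04 2 than in JIB-04 1, with Fabp5 the exception. Over all tested genes these shares were 50.1% and 49.3%. PPAR alpha target genes that were tested showed 30 of 31 higher in untreated 1, with a median log2 difference of 0.43, and 26 of 31 higher in JIB-04 2, with a median of 0.26. Pdk4, which encodes a brake on pyruvate oxidation, was the exception among untreated livers, with a 1.06-fold higher value in untreated 2. Cpt1a, which admits fatty acids to mitochondria, was at 78.3 and 47.6 in untreated 1 and 2 and at 49.2 and 48.8 in JIB-04 1 and 2, close to the ordering of Slc27a2 and chosen after its values were seen. Angptl8, an insulin-induced lipase regulator chosen likewise, went the other way, at 79.4 and 342 in untreated 1 and 2, while JIB-04 1 and 2 gave 207 and 34.5. Markers of other cell types were also mostly higher in untreated 1, in 11 of 13 macrophage, 10 of 10 endothelial and 5 of 5 stellate genes tested. With 2 animals a group these shares are descriptions, and what sets the animals apart was not tested.

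**Figure D3:**
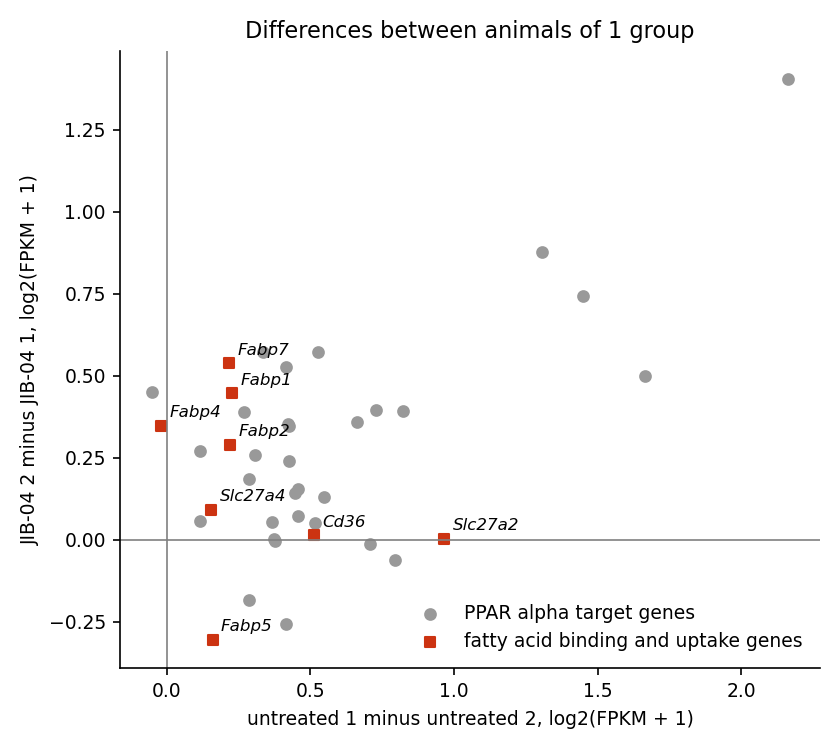
Untreated 1 minus untreated 2 (horizontal axis) against JIB-04 2 minus JIB-04 1 (vertical axis), both in log2(FPKM + 1), for the 8 fatty acid binding and uptake genes (red squares) and the 31 tested PPAR alpha target genes (grey circles). Nearly all points lie right of 0, and most lie above 0; Slc27a2 lies farthest right among the red squares.

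Other genes of fatty acid handling had no call. Across 7 lists of related genes, 78 of 100 genes in the table were tested and limma called 0. At an unadjusted p under 0.05 limma had 9 higher and 10 lower of the 78, beside 980 and 700 of all 10819 genes tested. Voom called 1 higher and 4 lower of the 78, beside 331 and 214 of the 10819. The median log2 change of the 78 genes was -0.06. Of 31 PPAR alpha target genes tested, 5 were higher and 3 lower at an unadjusted p under 0.05, with a median log2 change of 0.02. Their log2 changes ran from -2.51 (Cyp4a14) to 1.28 (Vnn1), both named after their values were seen. Cyp4a14 was at 30.3 and 8.87 FPKM in untreated and 1.61 and 2.68 in JIB-04 liver (limma adjusted p = 0.283). The groups of Vnn1 overlapped (limma adjusted p = 0.708). Mgll, the monoacylglycerol lipase that frees fatty acids from glycerol, was at 42.4 and 39.0 FPKM in untreated and 21.6 and 26.3 in JIB-04 liver (limma adjusted p = 0.0523). It was called lower by voom and in 5 further settings. Cidec, a lipid droplet protein gene, averaged 2.12 ± 0.638 and 3.84 ± 0.832 (SD, n = 2; limma adjusted p = 0.177).

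Acyl-CoA binding proteins, which hold activated fatty acids in the cytosol, had 6 tested genes and a median log2 change of -0.00077. Dbi, the main acyl-CoA binding protein gene, was at 227 and 271 FPKM in untreated and 368 and 439 in JIB-04 liver. Groups did not overlap, and the log2 change of 0.69 (SE 0.159) missed the limma threshold (adjusted p = 0.0904) but was called by voom and with the replicate number as a block. Scp2, a sterol and lipid carrier gene, averaged 596 ± 33.5 and 457 ± 33.8 (SD, n = 2; limma adjusted p = 0.256). The 4 tested long-chain acyl-CoA synthetase genes, which activate fatty acids after entry, had a median of -0.16. Those of lowest p were Acsl3 (limma adjusted p = 0.544) and Acsl4 (0.604), and the most abundant was Acsl1 at 72.6 ± 6.14 and 67.8 ± 5.63 FPKM (SD, n = 2).

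Lipases and lipoprotein receptors had 14 tested genes and a median of -0.16. Scarb1, the HDL receptor gene, averaged 25.4 ± 6.55 and 15.3 ± 1.06 FPKM (SD, n = 2; limma adjusted p = 0.144), and voom called it lower. Angptl4, an inhibitor of lipoprotein lipase, averaged 14.3 ± 5.33 and 27.8 ± 8.14 (SD, n = 2; limma adjusted p = 0.295). Among 20 tested regulators, Cebpa, a transcription factor of hepatocytes and adipocytes, averaged 157 ± 16.9 and 106 ± 2.62 FPKM (SD, n = 2; limma adjusted p = 0.101). Ppargc1a, a coactivator of oxidative metabolism, was at 1.49 and 1.71 without treatment and 0.860 and 0.715 after JIB-04 (limma adjusted p = 0.126). Voom called both lower. The log2 changes of the regulators ran from -1.64 (Srebf1) to 0.49 (Pparg), both named after their values were seen. Srebf1 was at 66.2 and 133 FPKM in untreated and 33.8 and 25.5 in JIB-04 liver (limma adjusted p = 0.168). Pparg was at 3.27 and 2.48 against 4.19 and 4.67 (limma adjusted p = 0.166). Ppara itself was at 31.5 and 30.2 in untreated and 25.8 and 15.2 in JIB-04 liver (limma adjusted p = 0.319), and Hnf4a, chosen with Ppara after its values were seen, averaged 109 and 104 (0.866).

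**Figure D4:**
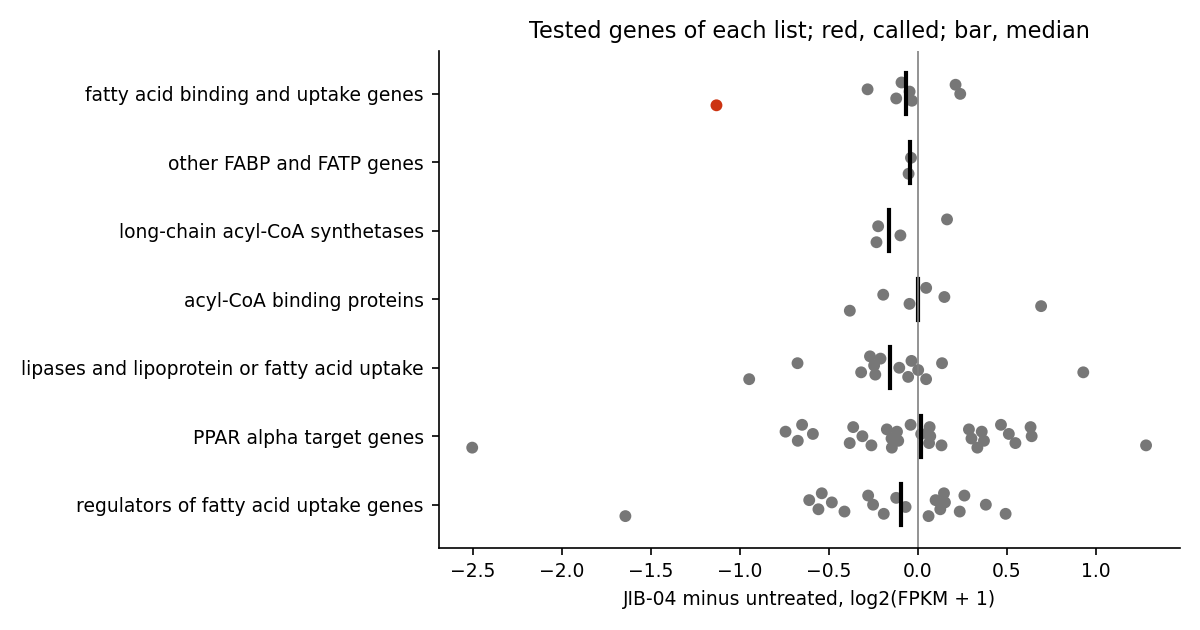
Log2 change of log2(FPKM + 1), JIB-04 minus untreated (horizontal axis), of each tested gene in 7 groups of genes (rows, the first being the 8 genes; a list with 1 tested gene is not drawn); red points were called by limma, grey points were not, and black bars are medians. Fabp2 is the single red point, and the PPAR alpha target genes spread from -2.51 to 1.28 around a median of 0.02.

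By Euclidean distance of log2(FPKM + 1) over the 4 libraries, after subtracting each gene's untreated mean, the 3 protein-coding genes of 9644 nearest to Fabp2 were Nxpe2 (0.0958), Ang (0.298) and Slc13a3 (0.304). Nxpe2 was at 8.41 and 6.94 FPKM in untreated and 2.78 and 3.49 in JIB-04 liver. Ang, which encodes angiogenin, a secreted ribonuclease, was at 259 and 229 against 123 and 125. Slc13a3, a dicarboxylate transporter gene, was at 15.5 and 10.7 against 5.74 and 6.07. These genes were picked for that likeness over 4 libraries and give no test.

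Hepatocyte markers summed to 75028 and 73064 FPKM in the untreated livers, and to 54537 and 47881 after JIB-04. Alb alone averaged 46758 ± 141 and 27300 ± 6208 (SD, n = 2; limma adjusted p = 0.144) and carried most of that sum. The other 8 markers together were at 28370 and 26207 against 22848 and 24971. Of the 9 hepatocyte markers, 1 had a positive log2 change (Fgb, 0.29), and the median was -0.24, against 0.01 over all genes tested. Alb had -0.80, Serpina1c -0.68 and Ahsg -0.57, while Apoa2 and Apob had -0.09 and -0.08. All save Alb were named after their values were seen. Groups did not overlap downward for 4 of the 9, beside 21.8% of all genes tested. Limma gave 3 of the 9 an unadjusted p under 0.05, all lower, beside 700 lower of all 10819 genes tested. Fabp2 was called lower in all 4 rescalings of the table (both TPM versions, quantile normalization and median centring), with log2 changes from -1.21 to -1.14. These rescalings reuse the same libraries for a gene picked with this contrast known, so they give no separate support. The part of hepatocyte markers in the Fabp2 difference was not tested.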

How the data were processed

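The authors deposited a single table of FPKM values for 56748 genes, with gene lengths, coordinates and biotypes. The submitters' processing notes name GRCm39 (mm39). No aligner, counter, annotation release or strand setting is given in the sources used here. FPKM times the deposited gene length came out in whole multiples of a fixed step per library for 100% of values (tolerance 0.01), which gave the reads per gene. Libraries come from separate mice, per the labels and the design text.

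Values were log2(FPKM + 1). JIB-04 was compared with untreated by limma 3.58.1 in R 4.3.3 (trend and robust moderation, two-sided) on the 10819 genes averaging 1 FPKM or more, and genes were called at a Benjamini-Hochberg adjusted p under 0.05 over all of them. Adding 1 understates the change of low genes. An SE is limma's moderated value. The limma and voom fits were also run on simulated libraries built from the mean reads of these data, and the outcome is not reported here. As alternatives the pseudocount, filter, scaling, moderation, replicate block and libraries were varied, and limma's voom was run on the recovered reads with TMM factors. Of the gene lists, 7 concern fatty acid handling and 10 hold cell type markers. Members and lists were chosen with earlier results of these data known. Named were all 8 members, called list genes or else the 2 of lowest p, the 3 genes nearest the member of largest change, and the 2 most abundant markers of cell types known to express a member. Other genes were named after their values were seen, also where the text does not say so. For 1 list the named gene is not reported here. Principal transcript lengths and shared stretches came from GENCODE M21, and promoter sequence from RefSeq, both of GRCm38, so no coordinate was carried over.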

Additional observations from a re-analysis of the deposited data

How the results depend on the processing

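All 15 other settings were run. The 165 genes called higher and 67 called lower over the whole table became 331 and 214 with voom, 20 and 0 without the filter on low values, and 236 and 121 with the replicate block, in which the sole call among the 8 genes, Fabp2, was kept. The range without 1 library was 22 to 107 higher and 1 to 54 lower. Of the 8 genes, the 1 called lower became 0 without the filter and ranged from 0 to 1 without 1 library. Log2 changes of the 8 genes kept their sign in all rescalings and other fits, but 6 of them (all save Fabp2 and Fabp5) changed sign without some library. In the 7 related lists, calls went from 0 to 1 higher with voom and with the replicate block. Lower calls went from 0 to 4 with voom, to 1 with a mean FPKM of at least 5, with both TPM rescalings, with quantile normalization and with the replicate block, and to between 0 and 2 without 1 library. The median of all genes moved by under 0.1 in every setting. The principal transcript length, chosen after seeing the data, moved the levels of 4 genes by more than the spread between replicates. Same-numbered libraries are not stated to be paired, and their deviations from the group means correlated at -0.0492. With 2 animals a group, p-values rest on a spread pooled over genes.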
